A study of Glycine max with 36 samples.

Results

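In soybean leaves sampled around the clock under constant conditions, 35 of 47011 genes had a strong daily course that was highest in the middle of the night on both days of sampling. They were chosen on their measured time course. The 3 replicates of each time point were averaged, and a gene was kept if its mean over the 36 libraries was at least 5 FPKM, if its highest mean was at ZT20 on the first day and at ZT44 on the second, and if the highest mean was at least 8 times the lowest mean plus 0.1 FPKM within each day. FPKM scales fragments by gene length and by the mapped total of a library, so levels can be compared between genes, and ZT is zeitgeber time in h. A set of 4 identifiers was excluded by name, but 0 of them met the criteria, since each was highest at ZT0 and ZT24.

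Plants keep daily time with a circadian clock, a network of transcription factors that repress and activate each other in turn and that goes on cycling when light and temperature are held constant. Through it, each clock-controlled transcript reaches its maximum at a typical time of day or night. In leaves, genes that are highest late at night are known to prepare the tissue for dawn, for example for photosynthesis, and others of the night serve growth and the use of starch.

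The RNA came from unifoliolate leaves, the simple leaves that open above the cotyledons, of cultivar Williams 82. Seedlings grew for 9 days at 28 °C with 16 h of light and 8 h of darkness a day, were then kept under constant conditions, which the labels do not describe as light or dark, and were sampled from day 11 every 4 h over 44 h. The groups are 12 time points, ZT0 to ZT44, with 3 replicates each, and every replicate was a pool of leaves from 3 seedlings, so that spread between single plants is not seen. Under the earlier cycle, ZT20 and ZT44 would have been the middle of the dark period, ZT8 and ZT32 the middle of the light period, ZT0 and ZT24 dawn, and ZT12 and ZT36 the evening.

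The identifiers are not paired with gene names, and 0 of 47011 matched the 59048 genes of the reference table, so the genes are given by identifier, without a function, and leaf markers could not be checked. Absolute depth is unknown. Steps of a whole read in low values gave relative depths of 0.795 to 1.14 times the median library. Of the 36 libraries, 3 stood apart from the rest on the fourth principal component, which held 3.33% of the variance. ZT44 replicate 2, ZT40 replicate 2 and ZT44 replicate 3 scored 34.0 to 39.3 and the others -24.8 to 17.5. The lowest scores belonged to the remaining libraries of these times, ZT40 replicates 1 and 3 (-24.8 and -21.6) and ZT44 replicate 1 (-17.4). At ZT44, replicates 2 and 3 were most alike, with Pearson's r of 0.994, against 0.969 and 0.972 with replicate 1. A fit without the 3 libraries keeps only replicate 1 of ZT44, so it is not a cleaner set. Calls between the days that were lost without the 3 libraries are named below. In whole leaves, fewer cells of a type and less RNA per cell cannot be told apart.

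The criteria narrowed the table in steps. A mean of at least 5 FPKM left 15627 genes, of which 973 had both highest means in the middle of the night. Of these, 35 passed the 8-fold limit on the first day only, 5 on the second day only and 35 on both. The same criteria with the highest mean at another time gave 60 genes for ZT0 and ZT24, 31 for ZT4 and ZT28, 71 for ZT8 and ZT32, 140 for ZT12 and ZT36, and 33 for ZT16 and ZT40. Just inside the limit lay GLYMA06G17790, with folds of 9.24 on the first day and 8.37 on the second, and GLYMA03G02090, with 13.1 and 8.45. Just outside lay GLYMA04G08000, with 9.37 and 7.90, and GLYMA01G31830, with 8.24 and 7.77. All values of the daily course given in the next paragraphs were used by the criteria and describe the genes.

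The 35 genes covered a wide range of levels. Their means over the 36 libraries ran from 5.16 to 1866 FPKM with a median of 18.7 FPKM, and 6 genes were at 100 FPKM or more and 11 under 10 FPKM. No gene was listed at 0 in any library (0 of 35). Together they made up 1.62% ± 0.188 (SD, n = 3) of the summed FPKM at ZT20 and 1.79% ± 0.0871 (n = 3) at ZT44, against 0.0678% ± 0.0302 (n = 3) at ZT8 and 0.0733% ± 0.00192 (n = 3) at ZT32. Most of that share came from the few abundant genes described below.

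**Figure D1:**
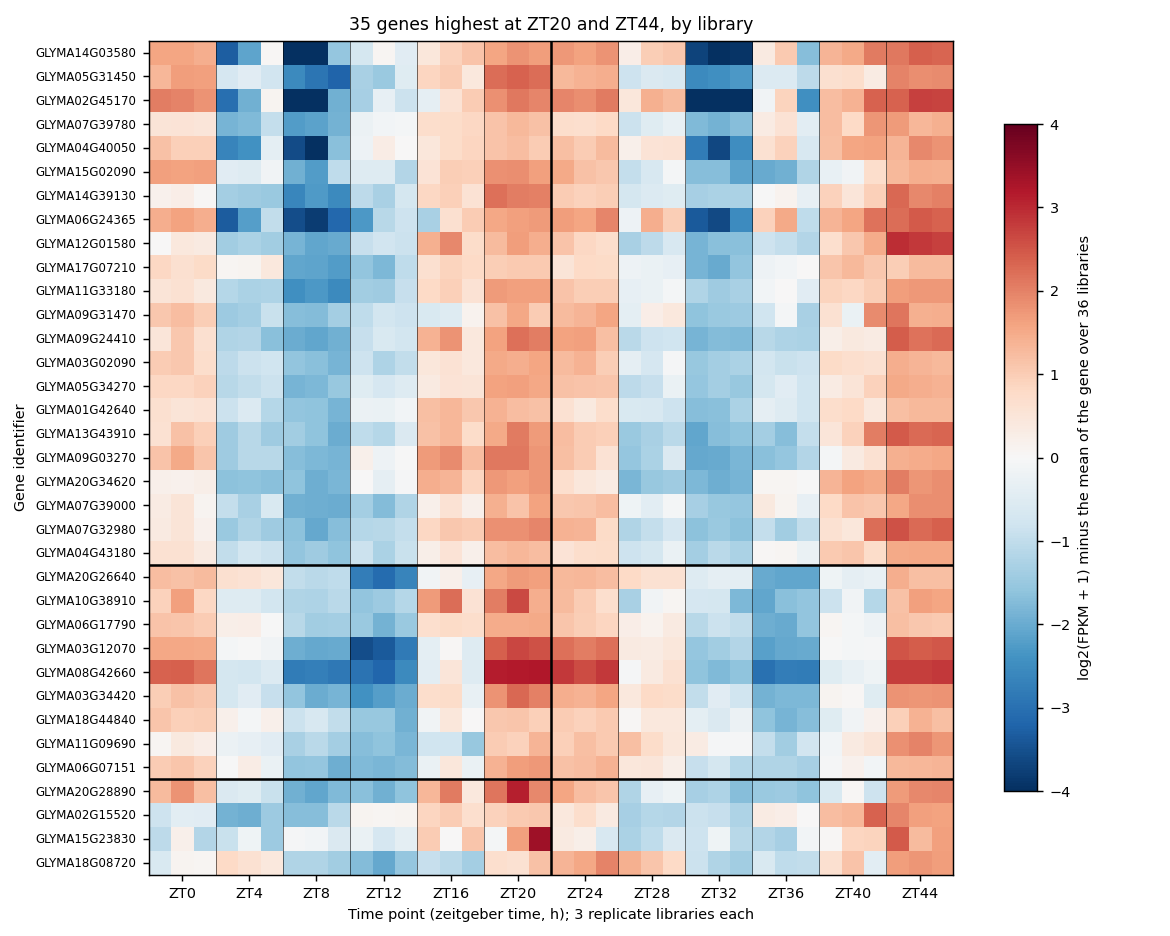
Level of the 35 genes in each of the 36 libraries, as log2(FPKM + 1) minus the mean of the gene over all libraries; colours are capped at 4 in either direction, columns are libraries in order of time, and horizontal lines part the 22 genes lowest at ZT8 and ZT32, the 9 lowest at ZT12 and ZT36 and the 4 with other lowest times. Red bands at ZT20 and ZT44 run through all groups, and the blue band lies a time point later in the 9 genes.

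The most abundant of the 35 genes was GLYMA14G03580. At ZT20 it stood at 2832, 3301 and 3009 FPKM in replicates 1 to 3, and at ZT44 at 4051, 4944 and 4782 FPKM. At ZT8 its libraries held 49.8, 12.0 and 319 FPKM, and at ZT32 71.7, 27.7 and 61.8 FPKM. The night values lay close together, whereas the libraries of ZT8 were far apart from each other. Dawn was nearly as high as midnight on the first day, with 2839, 2793 and 2581 FPKM at ZT0. The fold of highest over lowest mean was 24.0 on the first day and 85.3 on the second.

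GLYMA02G45170 had the course most like it, with Pearson's r of 0.994 over the 12 time point means on the log2 scale. This gene held 1140, 1388 and 1238 FPKM at ZT20 and 1660, 2145 and 2100 FPKM at ZT44. It fell to 12.6, 5.20 and 84.1 FPKM at ZT8 and to 18.3, 8.29 and 15.3 FPKM at ZT32. Its mean at ZT0 was 99.2% of that at ZT20, so that the order of dawn and midnight on the first day lay within the spread of the replicates. The folds were 36.8 and 140.

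GLYMA05G31450 was the second most abundant, and its replicates lay close together at both midnights and at ZT32. Its libraries held 3448, 3753 and 3502 FPKM at ZT20 and 2888, 2697 and 2752 FPKM at ZT44. At ZT8 they held 124, 96.6 and 78.3 FPKM and at ZT32 125, 133 and 149 FPKM. Every ZT20 library was above every other library of the first day, with the mean of ZT0 at 60.7% of ZT20, and the folds were 35.8 and 20.5. Its course was also among the most typical, with a median r of 0.9 with the courses of the other genes.

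Of the remaining abundant genes, GLYMA20G28890 held 1021, 1993 and 888 FPKM at ZT20 and 758, 880 and 891 FPKM at ZT44, and its lowest means were 60.5 FPKM ± 6.37 (SD, n = 3) at ZT8 and 80.3 FPKM ± 5.18 (n = 3) at ZT36. The first maximum was uneven, with replicate 2 far above the others, and the second was even. GLYMA07G39780 ran from 17.5, 19.1 and 22.5 FPKM at ZT8 to 192, 215 and 197 FPKM at ZT20, and from 25.1, 22.6 and 26.0 FPKM at ZT32 to 284, 222 and 233 FPKM at ZT44. Both of its maxima were far above the midday libraries. GLYMA20G26640 was lowest later in the day, with 10.7, 8.57 and 12.0 FPKM at ZT12 and 18.7, 17.8 and 18.1 FPKM at ZT36. It rose to 235, 262 and 251 FPKM at ZT20 and to 219, 184 and 183 FPKM at ZT44, with folds of 23.7 and 10.7. At ZT24 it held 197, 201 and 187 FPKM, with a mean at 99.7% of that at ZT44. The order of dawn and midnight on the second day thus lay within the spread of the replicates.

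**Figure D2:**
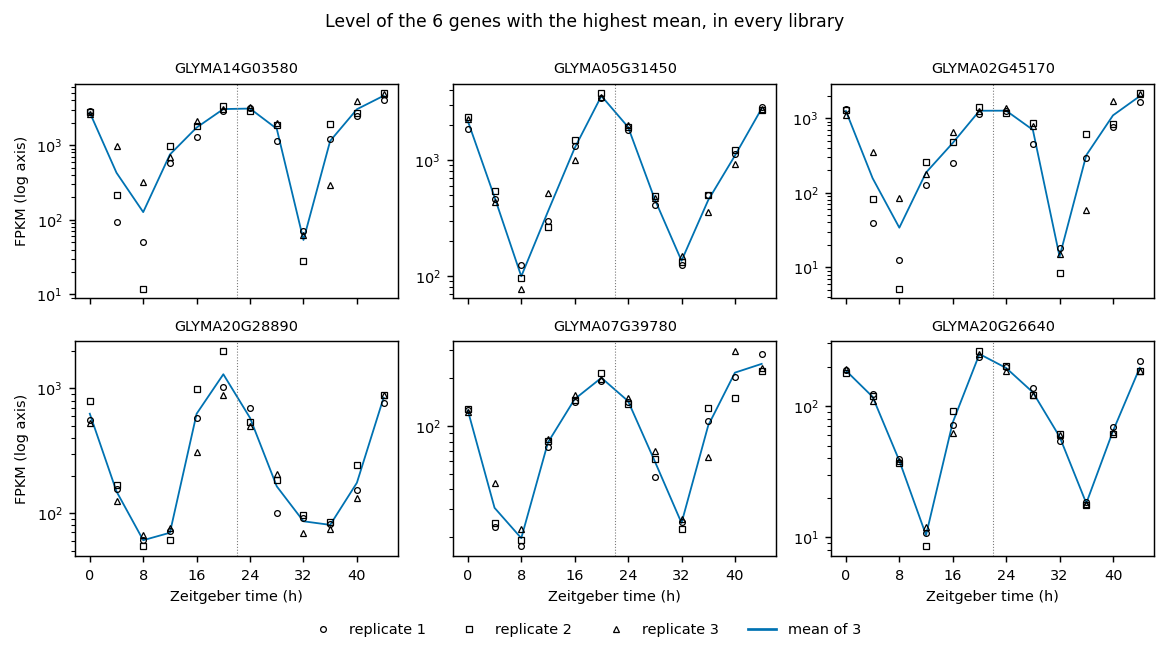
FPKM of the 6 genes with the highest mean in every library, on log axes against zeitgeber time in h; symbols are replicates 1 to 3, lines join the means of 3, and the dotted line parts the days. GLYMA14G03580 and GLYMA02G45170 scatter widely at ZT4, ZT8 and ZT36 and little at ZT20, while GLYMA20G26640 is even at nearly all times. GLYMA05G31450 is even at ZT20 and ZT44 and scatters more at ZT8 and ZT12.

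By the smaller fold of the 2 days, the largest swing was in GLYMA08G42660, a gene of middling level. GLYMA08G42660 held 80.3, 82.8 and 84.0 FPKM at ZT20 and 61.9, 62.1 and 64.7 FPKM at ZT44. At ZT24 it held 64.3, 55.7 and 65.1 FPKM, with a mean at 98.1% of that at ZT44. At ZT12 it stood at 0.185, 0.0349 and 0.593 FPKM and at ZT36 at 0.162, 0.347 and 0.331 FPKM. The folds were 222 and 165, the only ones of the 35 genes above 100 on both days, but their denominators are well under 1 FPKM, and 1 read was worth about 0.0366 FPKM in the median low gene. GLYMA06G24365 was the only other gene above 50 on both days, with 82.9 and 78.0. Over all 35, the first-day fold ran from 8.53 to 222 with a median of 18.7, and the second-day fold from 8.37 to 165 with a median of 11.2. The fold was larger on the first day in 25 of 35 genes, and it was at least 10 on both days in 22 and at least 20 on both in 10.

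By the time of the lowest mean, 22 genes had their minimum at midday, ZT8 and ZT32, 9 in the evening, ZT12 and ZT36, and 4 at other times. The 22 fell steeply after dawn. Their median level was 59.4% of ZT20 at ZT0, 13.5% at ZT4 and 4.50% at ZT8, and it had returned to 15.4% by ZT12 and 52.6% by ZT16. The 9 evening-minimum genes fell more slowly and rose later. Their medians were 54.0% at ZT0, 28.7% at ZT4, 9.87% at ZT8, 4.18% at ZT12 and 30.1% at ZT16. On the second day the medians at ZT36 were 21.1% of ZT44 for the 22 genes and 9.33% for the 9.

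The flanks of the maximum differed in the same way. In 21 of 35 genes the dawn side (the mean of ZT0 and ZT24) was higher than the early-night side (the mean of ZT16 and ZT40), and in 14 the reverse held. All 9 evening-minimum genes were higher on the dawn side, against 10 of the 22 midday-minimum genes. These counts are on the FPKM scale and were not repeated after the scaling described below. That scaling lowers ZT16 and ZT40 against ZT0 and ZT24, so the counts may differ on it. They also pool both days. On the first day GLYMA10G38910, among the 9, was higher at ZT16 than at ZT0 (72.1% and 51.5% of ZT20). On the second day it stood at 22.1% of ZT44 at ZT40 and at 71.2% at ZT24. GLYMA12G01580 is an example of the early side, with 35.7, 49.9 and 21.7 FPKM at ZT16 beside 31.5, 42.5 and 36.4 FPKM at ZT20, where the libraries overlap. On the second day its means at ZT40 and ZT24 were nearer, at 29.4% and 25.4% of ZT44. GLYMA18G44840 is an example of the dawn side, with 21.0, 18.5 and 19.0 FPKM at ZT0 beside 20.4, 21.1 and 18.5 FPKM at ZT20. Both were chosen for mention after their values were seen.

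**Figure D3:**
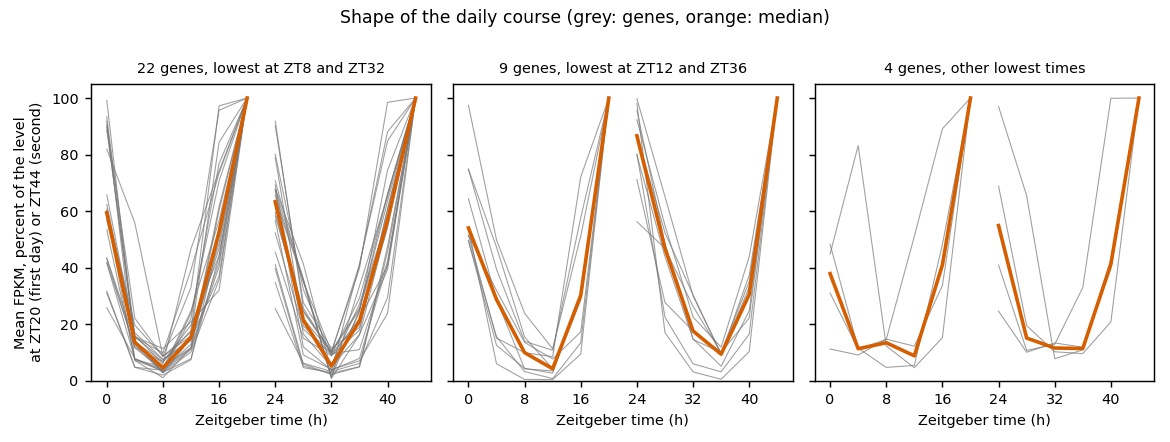
Mean FPKM of each gene as a percent of its level at ZT20 (first day) or ZT44 (second day) against zeitgeber time in h; grey lines are genes and orange lines the median of the group. The median of the 22 genes with a midday minimum is lowest at ZT8 and ZT32, that of the 9 at ZT12 and ZT36, and the 4 remaining genes have their minima at differing times.

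How firmly midnight was the highest time differed between genes. In 19 of 35 all 3 ZT20 libraries exceeded every other library of the first day, in 20 all 3 ZT44 libraries did so on the second, and in 12 both held. Taken replicate by replicate, 17 genes were highest at ZT20 and at ZT44 in each of the 3. The coefficient of variation between replicates had a median of 7.76% at ZT20 (range 0.720 to 106%) and 7.97% at ZT44 (range 1.5 to 46.4%). The highest value belongs to GLYMA15G23830, whose ZT20 libraries held 4.35, 16.8 and 57.9 FPKM, far apart from each other. It did not meet the criteria without replicate 1 or without replicate 3.

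The order of midnight and dawn also depended on the scale. Median-ratio scale factors, computed over genes above 0 in all libraries, had means of 0.849 at ZT0, 0.990 at ZT20, 0.858 at ZT24 and 1.08 at ZT44. These factors had means of 1.22 at ZT16 and 1.25 at ZT40, which lowers the early-night side against the dawn side. After division by them, 22 genes met the criteria, 19 of which were among the 35. Of the 16 genes lost, 15 were then highest at dawn on at least 1 day, 7 at ZT0 and 11 at ZT24, and all 15 still passed the 8-fold limit on both days, while 1 fell under that limit. For these 15 genes the size of the daily swing held on both scales and the time of the maximum, midnight or dawn, did not. GLYMA14G03580, GLYMA02G45170, GLYMA20G26640 and GLYMA08G42660 were among the 15.

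The difference in level between the days was not used by the criteria and could be tested, although the means of each day entered the 8-fold limit. It was taken as the second 24 h minus the first, over 6 times of day, on log2(FPKM + 1), with limma's moderated test and Benjamini-Hochberg adjustment over the 27449 genes whose mean reached 1 FPKM. All 35 genes pass that filter because the criteria ask for 5 FPKM. They are thus unlike all genes tested in level and swing. The shares set beside those of all genes, here and at midnight, are a description. On the second day 20 of 35 genes were higher (57.1%), where the share of all genes tested was 29.8%, and 4 were lower (11.4%), where it was 18.8%. The median difference was 0.34 on the log2 scale against 0.03 over all genes, and 28 of 35 genes lay above 0 (80%) against 57.6% of all genes. After median-ratio scaling the medians were 0.31 and 0.00. Of the midday-minimum genes 13 of 22 were higher and 2 lower, and of the evening-minimum genes 5 of 9 were higher and 2 lower. With replicate 1 left out at every time, 13 genes were called higher and 2 lower, and without replicate 2 also 2 were lower. Without the 3 libraries that stood apart 20 were higher, 19 of them the same, and 3 lower; GLYMA17G07210 and GLYMA06G17790 lost their calls.

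GLYMA06G24365 had the largest rise. Its libraries held 47.8, 51.0 and 54.2 FPKM at ZT20 and 77.7, 91.0 and 86.3 FPKM at ZT44. In the evening they held 2.40, 6.83 and 8.44 FPKM at ZT12 and 30.9, 47.1 and 7.35 FPKM at ZT36. The midnight groups did not overlap, and the evening groups did. The difference over the day was 1.28 ± 0.27 (SE) on the log2 scale (adjusted p = 0.000174, limma).

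GLYMA11G09690 had a higher mean on the second day at all 6 times of day. It held 12.1, 11.3 and 15.7 FPKM at ZT20 and 22.3, 24.6 and 21.0 FPKM at ZT44, and 4.52, 4.23 and 3.72 FPKM at ZT4 against 13.9, 9.87 and 8.01 FPKM at ZT28. At both times all 3 second-day libraries were above all 3 of the first. The difference was 1.00 ± 0.08 (adjusted p = 2.57e-11, limma).

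Among the 4 genes that fell, GLYMA09G03270 showed the largest change. Its libraries held 26.0, 26.2 and 20.5 FPKM at ZT20 and 16.1, 16.8 and 17.3 FPKM at ZT44, and 19.7, 22.3 and 13.9 FPKM at ZT16 against 5.05, 7.03 and 8.60 FPKM at ZT40. The groups did not overlap at either time, and the difference was -0.62 ± 0.13 (adjusted p = 0.000114, limma). GLYMA10G38910 held 249, 371 and 165 FPKM at ZT20 and 136, 188 and 180 FPKM at ZT44, where the groups overlap. Its difference was -0.52 ± 0.19 (adjusted p = 0.0277, limma), and it was not called without replicate 1 (adjusted p = 0.155) or without replicate 2 (adjusted p = 0.0874). GLYMA15G02090 and GLYMA06G17790 were the other genes called lower. GLYMA06G17790 was not called without replicate 1 or without replicate 2.

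Of the 6 abundant genes only GLYMA07G39780 was called, with 0.43 ± 0.09 (adjusted p = 0.0003, limma). GLYMA14G03580 differed by 0.70 ± 0.32 (adjusted p = 0.0699) and GLYMA02G45170 by 0.74 ± 0.32 (adjusted p = 0.0585), and neither passed the limma test unless replicate 3 was left out, which gave 1.10 (adjusted p = 0.00506) and 1.14 (adjusted p = 0.0041). GLYMA05G31450 differed by 0.01 ± 0.09, with a 95% interval from -0.17 to 0.19. GLYMA20G26640 differed by 0.16 ± 0.08 (adjusted p = 0.0909, limma) and passed the test without the 3 libraries that stood apart (0.25, adjusted p = 0.00815).

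The medians by time of day are a description, and the differences between times were not tested. The median difference of the 35 genes was 0.43 between ZT28 and ZT4, where 31 of 35 were above 0, and 0.24 between ZT24 and ZT0. At midday, ZT32 against ZT8, it was 0.30, and in the evening, ZT36 against ZT12, it was 0.21, where the median of all genes was -0.04. In the early night, ZT40 against ZT16, it was 0.11, and at midnight 0.14. The medians of all genes lay between -0.04 and 0.09 at these 6 times, and at midnight the median of all genes was 0.09.

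**Figure D4:**
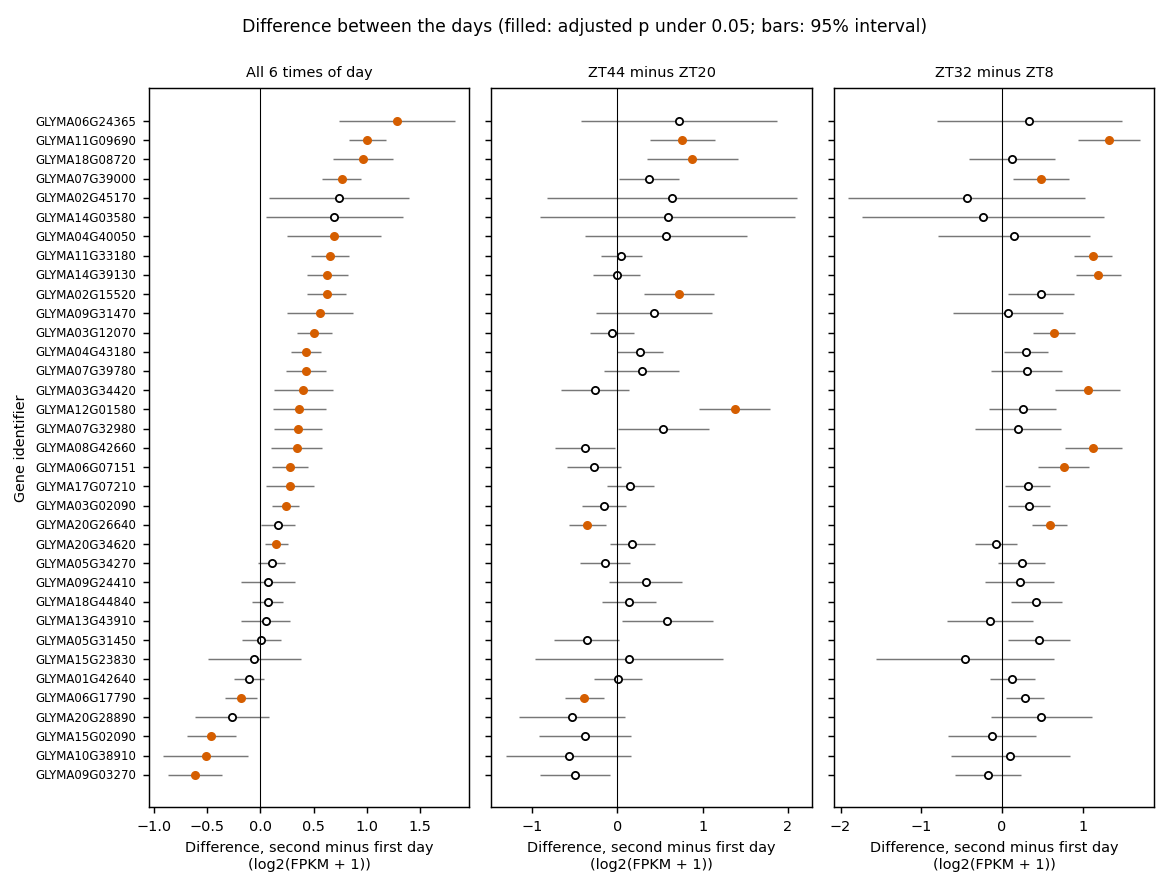
Second minus first day on the log2(FPKM + 1) scale for each of the 35 genes, over all 6 times of day, at midnight (ZT44 minus ZT20) and at midday (ZT32 minus ZT8); points are limma estimates, bars 95% intervals, and filled points have an adjusted p under 0.05. In the first panel 20 filled points lie to the right of 0 and 4 to the left, in the second 4 and 2, and in the third 9 and 0.

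The height of the maximum was compared between ZT44 and ZT20. Both means had to be the highest of their day and entered the 8-fold limits. Nothing is therefore read from the shares below beside those of all genes. The difference between these means was not itself a criterion. Of the 35 genes 4 were higher at ZT44 (11.4%, where the share of all genes tested was 24.3%), 2 were lower (5.71%, where it was 9.22%) and 29 were not called. The median difference was 0.14 against 0.09 over all genes, and after median-ratio scaling the medians were 0.02 and -0.01. The 3 libraries of each midnight did not overlap in more genes, with ZT44 higher in 12 (34.3%, against 32.5% of all genes) and lower in 10 (28.6%, against 12.5%). The limma fit takes its spread from all 12 time points, so that genes with scattered midday libraries, such as GLYMA14G03580, are given a wide error at midnight too. Its midnight groups did not overlap, yet its difference was 0.59 ± 0.73 (adjusted p = 0.563, limma).

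GLYMA12G01580 rose most at midnight. Its ZT20 libraries held 31.5, 42.5 and 36.4 FPKM and its ZT44 libraries 104, 95.4 and 90.1 FPKM. All of the second were far above all of the first, by 1.38 ± 0.20 on the log2 scale (adjusted p = 2e-05, limma). Without the 3 libraries that stood apart the difference was 1.49 (adjusted p = 0.00233). The same gene had held 12.8, 17.0 and 16.5 FPKM at ZT0 and 29.2, 23.3 and 21.1 FPKM at ZT24.

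GLYMA18G08720 held 6.15, 5.76 and 9.15 FPKM at ZT20 and 13.3, 14.1 and 13.1 FPKM at ZT44, without overlap, a difference of 0.88 ± 0.26 (adjusted p = 0.0107, limma). It was not called with a pseudocount of 0.1 (adjusted p = 0.0541), without ZT20 replicate 2 (0.0522), with replicate 1 (0.0957) or replicate 2 (0.133) left out at every time, or without the 3 libraries that stood apart (0.0682). GLYMA11G09690 and GLYMA02G15520 were the other genes called higher at ZT44. Without the 3 libraries GLYMA11G09690 was not called (adjusted p = 0.0562, limma) and GLYMA02G15520 was (0.023). Without replicate 2 at every time neither was called (0.0978 and 0.0634), and without replicate 1 GLYMA02G15520 was not (0.125).

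The 2 genes called lower at ZT44 changed little in size. GLYMA06G17790 held 98.3, 98.7 and 99.7 FPKM at ZT20 and 80.4, 74.0 and 71.6 FPKM at ZT44, a difference of -0.39 ± 0.11 (adjusted p = 0.00933, limma). GLYMA20G26640, whose values are given above, differed by -0.35 ± 0.11 (adjusted p = 0.0123, limma). Neither midnight pair overlapped. Neither was called without the 3 libraries that stood apart, which leaves 1 library of ZT44 that is assumed to vary like the other time points. The difference was then -0.29 (adjusted p = 0.193) for GLYMA06G17790 and -0.18 (adjusted p = 0.374) for GLYMA20G26640. GLYMA20G26640 was also not called without ZT20 replicate 2 (adjusted p = 0.0524), ZT44 replicate 2 (adjusted p = 0.0569) or ZT44 replicate 3 (adjusted p = 0.0584). With replicate 2 left out at every time, neither GLYMA06G17790 (adjusted p = 0.0684, limma) nor GLYMA20G26640 (adjusted p = 0.0956) was called. GLYMA20G26640 was also not called with replicate 3 left out at every time (adjusted p = 0.0904, limma). Without the 3 libraries 2 genes were called higher and 0 lower at ZT44.

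At midday, 12 h from the maximum, 9 of the 35 genes were higher at ZT32 than at ZT8 (25.7%, where the share of all genes tested was 11.1%) and 0 were lower (where it was 6.6%). By limma's unadjusted p under 0.05, 16 were higher (45.7%, against 18.7% of all genes) and 0 lower (against 11.8%). The 3 libraries of each time did not overlap in 17 genes with ZT32 higher (48.6%, against 25.8% of all genes) and in 0 with ZT32 lower (against 15.6%). The median difference was 0.30 against 0.04 over all genes, with 28 of 35 genes above 0. ZT8 and ZT32 hold the lowest means of 22 genes and so entered the 8-fold limit of each day, so nothing is read from these shares beside those of all genes. By group, 6 of the 9 evening-minimum genes and 3 of the 22 midday-minimum genes were called, which describes the genes, since the same times define these groups.

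GLYMA11G09690 rose most at midday, from 1.66, 2.11 and 1.52 FPKM at ZT8 to 7.18, 5.35 and 5.29 FPKM at ZT32. Its groups were far apart, with a difference of 1.33 ± 0.19 (adjusted p = 1.86e-05, limma). GLYMA14G39130 rose from 2.91, 3.91 and 3.05 FPKM to 8.52, 8.98 and 8.83 FPKM, by 1.20 ± 0.14 (adjusted p = 9.83e-07, limma). Its midnight libraries overlapped, with 108, 97.4 and 94.9 FPKM at ZT20 and 116, 89.6 and 94.5 FPKM at ZT44, a difference of -0.01 ± 0.14 with a 95% interval from -0.29 to 0.27. GLYMA07G39000 was nearest to the threshold among the 9 (adjusted p = 0.0498, limma). It was not called in any of the 6 fits that left out a single library of ZT8 or ZT32, while the other 8 were called in all of them.

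GLYMA20G26640 showed the opposite change at the 2 times. Its ZT8 libraries held 39.8, 36.9 and 38.5 FPKM and its ZT32 libraries 54.3, 60.9 and 60.3 FPKM, a rise of 0.59 ± 0.11 (adjusted p = 0.000301, limma), beside the fall at ZT44 given above. Its rhythm was not called between the days (adjusted p = 0.246, limma). GLYMA05G31450 moved likewise in value, by 0.46 ± 0.19 at midday (adjusted p = 0.0865, limma) and -0.36 ± 0.19 at midnight (adjusted p = 0.138, limma), and passed the test only at midday and only without ZT8 replicate 1 (adjusted p = 0.0427). For GLYMA14G03580 and GLYMA02G45170 the midday intervals were wide, from -1.73 to 1.27 and from -1.90 to 1.03. Neither gene was called, and changes of either sign within these intervals remain possible.

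The rhythm itself was compared between the days by fitting a 24-h cosine and sine to each and testing the interaction with the day. The fitted maximum of the 35 genes lay between ZT17.4 and ZT23.7 on the first day, with a median of ZT20.3, and between 18.2 and 23.5 h into the second, with a median of 20.5 h. The maximum was later on the second day in 29 of 35 genes, by a median of 0.603 h, and 0.448 to 0.54 h when each replicate course was fitted alone (SD 0.0508 h over 3 courses). The amplitude of the second day was a median of 0.912 times that of the first (SD 0.0385 over 3 courses). These medians describe the genes and were given no test. Each course joins libraries by replicate number, which is not known to pair them, so the SDs describe that grouping only. The shift was not summarised over all genes, so a later maximum is not shown to be particular to the 35. The criteria also fix the sampled maximum at ZT20 and ZT44.

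The interaction was called in 11 of 35 genes (31.4%, where the share of all genes tested was 15.4%). The criteria had picked these genes for a large swing within each day, which most of the other genes lack, so nothing is read from the 2 shares side by side. The amplitude, the distance from the middle to the maximum of the fitted curve on the log2 scale, was smaller on the second day in 9 of them and larger in 2, and the maximum was later in 10 and earlier in 1, GLYMA04G43180. The fit with fewer libraries called fewer genes, with 3 without replicate 1, 1 without replicate 2 and 6 without replicate 3. GLYMA11G33180 was called in each of these.

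GLYMA11G33180 had the largest loss of amplitude, from 1.99 to 1.4 (adjusted p = 0.000113, limma). Its midnights were alike, with 46.0, 43.7 and 43.8 FPKM at ZT20 and 44.5, 46.1 and 47.0 FPKM at ZT44. Its middays were not, with 1.61, 1.91 and 1.43 FPKM at ZT8 and 5.18, 4.32 and 4.88 FPKM at ZT32. By limma the midnight difference was 0.04, with a 95% interval from -0.20 to 0.28, and the midday difference 1.13, with an interval from 0.89 to 1.37. GLYMA14G39130, whose libraries above showed the same, went from 2.11 to 1.52 (adjusted p = 0.00537, limma), and was not called without replicate 1 (adjusted p = 0.0613), replicate 2 (0.125) or replicate 3 (0.0524).

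GLYMA12G01580 had the larger of the 2 gains in amplitude, from 1.85 to 2.19 (adjusted p = 0.0289, limma), with a maximum 0.875 h later. It was not called without any of the 3 replicates (adjusted p 0.105 to 0.262) or without the 3 libraries that stood apart (adjusted p = 0.082). For GLYMA09G24410 the amplitude was 2.01 and 2.05, a difference of 0.03 that was below 0 in 3 other settings, and the change lay in a maximum 1.37 h later (adjusted p = 0.0021, limma). Its early-night libraries held 24.5, 32.5 and 11.9 FPKM at ZT16 and 10.4, 11.7 and 11.2 FPKM at ZT40, and its midnight libraries 28.9, 44.1 and 38.8 FPKM and 51.3, 43.2 and 45.4 FPKM. The interaction of GLYMA20G28890 was also called (adjusted p = 0.0204, limma), with an amplitude from 2.31 to 1.77 and a maximum 1.17 h later, but not without replicate 1 (0.112), replicate 2 (0.203) or replicate 3 (0.0687).

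A further property that the criteria did not use is how libraries of 1 time point deviate from their mean. On the log2 scale the pooled SD within time points ran from 0.13 to 0.978 over the 35 genes, with a median of 0.255, and was largest in GLYMA14G03580. Over the 36 libraries, these deviations had a median Pearson's r of 0.14 over the 595 pairs of genes, with a range from -0.675 to 0.973. They were over 0.8 in 5 pairs, which are described here as the highest of many and given no test. The libraries of a pair share leaf pool, depth and scale.

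GLYMA14G03580, GLYMA02G45170 and GLYMA04G40050 formed a trio with r between 0.936 and 0.973. Spearman's rho was 0.915 to 0.986, and r was 0.91 to 0.974 without the 2 libraries farthest out. All 3 genes were high in ZT4 replicate 3 and ZT8 replicate 3, by a mean of 1.66 and 2.00 above their time point on the log2 scale. They were low in ZT8 replicate 2, by -1.61, and in ZT36 replicate 3, by -1.47, and high in ZT36 replicate 2, by 1.08. GLYMA04G40050, for example, held 2.32, 1.28 and 11.4 FPKM at ZT8. The relative depths of the 3 libraries were 0.908, 0.942 and 1.07 at ZT8 and 1.02, 1.05 and 0.901 at ZT36, and their part in the deviations was not tested. Whether near-identical copies among these genes share reads was not tested either.

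GLYMA20G28890 and GLYMA10G38910 deviated together with r of 0.912 (rho 0.903, and r 0.886 without the 2 libraries farthest out). Both were high in ZT16 replicate 2 and ZT20 replicate 2, by a mean of 0.76 and 0.64, and low in replicate 3 of both times, by -0.89 and -0.52. The remaining pair was GLYMA07G39780 and GLYMA09G31470, with r of 0.859 (rho 0.856, and 0.891 without the 2 farthest). Across all 35 genes the courses of the 12 means were alike by construction, with a median r of 0.829 over the 595 pairs and a range from 0.145 to 0.994.

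**Figure D5:**
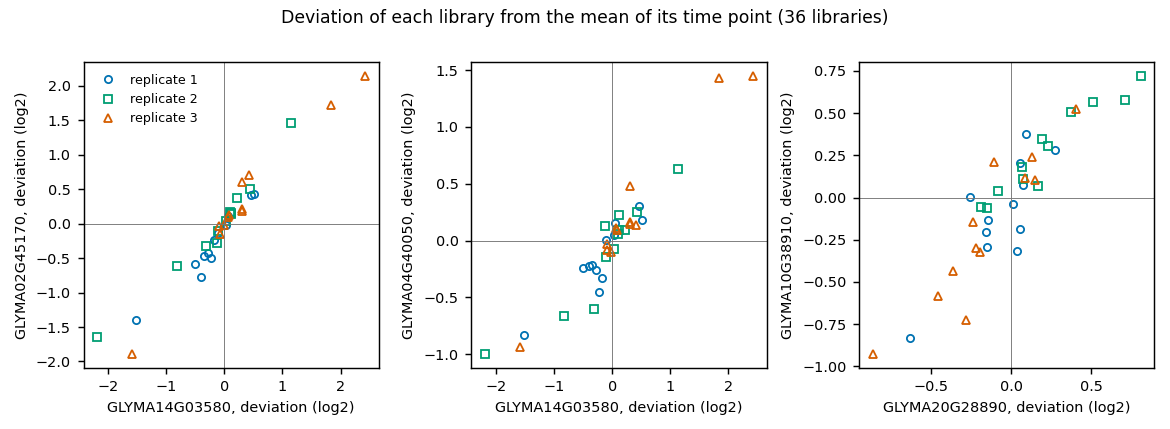
Deviation of each of the 36 libraries from the mean of its time point, in log2(FPKM + 1), for 3 pairs of genes; symbols and colours mark replicates 1 to 3. Points lie along a rising line in each panel, with r of 0.973, 0.954 and 0.912, and ZT8 replicate 3 is the point at the upper right of the first panel.

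By the number carried in the identifier, the 35 genes were spread over 18 chromosomes with at most 3 on any. The closest were GLYMA07G39000 and GLYMA07G39780, with 64 listed identifiers between them, so that no members stood side by side. Of the 46 direct neighbours with a mean of at least 1 FPKM, 6 (13%) were also highest at ZT20 and ZT44, against 1637 of 27442 genes (5.97%), which is a description of identifier order and was given no test. The neighbour with the largest folds among these 6 was GLYMA03G34410, next to GLYMA03G34420, with 22.9 on the first day and 7.28 on the second, which was chosen for mention after its values were seen.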

How the data were processed

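The authors deposited 1 table of FPKM values for 47011 gene identifiers in 36 libraries, 3 for each of 12 time points, with column names that matched the sample titles. Per the submitters' processing notes the tools included TopHat2 2.1.0 and HTSeq 0.6.0, with no role stated. Not given in the sources used here are the annotation, the build and what computed the FPKM. FPKM are shares of a library, so abundant transcripts can move all others, and they are not counts, so no count model was used. How counting treated near-identical gene copies, which soybean has many of, is not known.

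The 35 genes and all lists were chosen with earlier results of these data known. Values were taken as log2(FPKM + 1), which understates the change of low genes, for the 27449 genes whose mean reached 1 FPKM. They were fitted in limma 3.58.1 (R 4.3.3), letting the prior variance follow a trend, and p-values were adjusted by the Benjamini-Hochberg method over all of these genes at 0.05. The level between the days had time of day as a factor, the contrasts between single times had 12 time points as a factor, and the rhythm was a 24-h cosine and sine interacting with the day. All 36 libraries entered each fit. The procedure was tested on simulated data. Named genes are the 6 with the highest mean and, per comparison, up to 2 called rises and 2 called falls of the largest size; others were named after their values were seen. For the rhythm, rise and fall refer to the amplitude. The replicates are separate pools. Alternatives were median-ratio scaling, a pseudocount of 0.1, no filter, other limits of the criteria, a replicate block and leaving out each replicate. Leaving out single libraries, or the 3 that stood apart, and the counts of groups that do not overlap or by unadjusted p were added after seeing the data.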

Additional observations from a re-analysis of the deposited data

Results flagged for a closer look

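By the test of the interaction of day with a 24-h curve, the rhythm differed between the days in 11 of the 35 genes. That is 31.4%, where the share of all genes tested was 15.4%. The criteria picked these genes for a large swing within each day, so nothing is read from the 2 shares side by side. The number called fell to 3, 1 and 6 genes without replicates 1, 2 and 3. Of the genes described above, GLYMA12G01580 had an adjusted p of 0.0289, GLYMA09G24410 of 0.0021, GLYMA11G33180 of 0.000113 and GLYMA14G39130 of 0.00537 in limma's moderated F-test with Benjamini-Hochberg adjustment. GLYMA12G01580 and GLYMA14G39130 lost the call with any of the 3 replicates left out, and GLYMA09G24410 without replicate 1 (adjusted p = 0.0564) or replicate 2 (0.0688). In the 3 courses joined by replicate number, which is not known to pair libraries, the median shift over the 35 genes was later in each (0.54, 0.457 and 0.448 h). This shift was given no test and was not summarised over all genes.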

How the results depend on the processing

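The criteria kept 22 genes after median-ratio scaling and 21 when 1 FPKM was added to the lowest mean in place of 0.1, all 21 of them among the 35. Leaving out a replicate at every time gave 32 to 35 genes, 27 to 29 of them among the 35. In the tests below the 35 genes were held fixed. For the level between days, leaving out a replicate gave 13 to 17 genes higher and 2 to 5 lower. At ZT44 against ZT20 it gave 1 to 5 higher and 0 to 4 lower, also when single libraries were left out, median-ratio scaling gave 4 lower, and without the 3 libraries that stood apart 2 were higher and 0 lower. At ZT32 against ZT8 leaving out a replicate or a library gave 7 to 10 higher, a pseudocount of 0.1 gave 11, and 0 were lower in all settings run. The rhythm was called in 1 to 6 genes with a replicate left out. The amplitude difference of GLYMA09G24410 turned to -0.00968 with a pseudocount of 0.1 and to -0.00471 without the 3 libraries, and ran from -0.0627 to 0.147 with a replicate left out. The cause of these changes was not tested. With a replicate block, 20 genes were higher and 4 lower between the days, 4 higher and 2 lower at ZT44, 8 higher at ZT32 and 11 called for the rhythm. The deviations of same-numbered libraries had a mean r of 0.0114 over 198 pairs of libraries, and 42 of these were over 0.1. For libraries with other numbers the mean r was -0.00615 over 396 pairs, and 68 were over 0.1. Means this near 0 do not settle whether replicate numbers pair the samples. Absolute depth is unknown, and values far under 1 FPKM rest on few reads.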
